A study of Mus musculus with 12 samples.

Results

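The 40 genes described here were chosen as markers of endothelial cells, the lining of blood vessels, or as genes of vessel development. They were listed by mouse symbol as endothelial junction, transcription factor, Notch and sinus genes, by a rule that uses no measured value, although the list was drawn up with earlier results of these data known. They are 40 of the 18221 genes in the spleen tables. The list holds 14 junction and surface genes, 6 signalling genes and 8 transcription factors, classed here as not particular to a vessel type. It also holds 7 arterial or Notch genes, 2 genes with venous or developing-vessel expression and 3 genes of sinus endothelium. The question of the study was whether busulfan, an alkylating anti-cancer drug, changed the spleen and whether transferred gut microbiota altered its effect. RNA was measured in whole spleens of 12 male ICR mice, an outbred stock, with 3 mice per group and 4 groups.

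The Con-sa mice received saline and no busulfan. The B-sa mice received 1 injection of busulfan at 40 mg/kg and then saline. The B+Con-FMT mice received the same injection and then, by mouth once a day for 2 weeks, the small intestine contents of control donor mice (fecal microbiota transplantation, FMT). The B+A10-FMT mice received busulfan and the contents of donors that had been given alginate oligosaccharide (AOS), a seaweed-derived sugar chain, at 10 mg/kg. All mice entered at 3 weeks of age and were collected at 8 weeks. Donor contents were pooled within each donor group. The paper also states that the animal experiments were repeated, and whether the mice measured here received the same pool is not given. The design has no group that received FMT without busulfan, and every FMT group also carries the busulfan injection. The 3 samples of a group are taken as separate mice, from the replicate numbers of the labels, and p-values measure the spread between them. Variation between pools of donor contents was not measured.

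Endothelial cells are held together by junction proteins such as VE-cadherin (Cdh5) and claudin 5 (Cldn5), and ETS, SOX and KLF transcription factors maintain their gene programme. Notch ligands and receptors set arterial identity, and EphB4 marks veins. In the spleen, blood passes through the sinuses of the red pulp, whose lining cells carry the scavenger receptors stabilin 1 and stabilin 2 (Stab1, Stab2) and filter blood cells together with red pulp macrophages.

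Values are RPKM, reads per kilobase of transcript scaled to the mapped reads of a library, summed over the transcripts of a gene, so that levels of different genes can be set side by side per length. The estimated depth was 12900000 to 13500000 reads per mouse, and globin transcripts took 23.3% to 32.4% of the summed RPKM. Of the 40 genes, 38 passed the filter of at least 1 RPKM in at least 3 mice and were among the 12671 genes tested. Sox7 (0.46 to 1.08 RPKM over the 12 mice) and Tal2 (0 to 0.13 RPKM) did not pass it. Tal2 was near 0 in every mouse, so whether it belongs among endothelial genes could not be judged here. The labelled tissue held clear endothelial signal: the defining markers Pecam1 (CD31) and Cdh5 measured 42.5 to 53.5 RPKM and 6.44 to 12.2 RPKM. In whole spleen, fewer cells of a type and less RNA per cell cannot be told apart. A gene is called higher or lower in a comparison at a limma adjusted p under 0.05, and fold changes are on the log2(RPKM + 1) scale, which understates the change of genes with low RPKM.

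RefSeq promoter windows (250 bases before each transcript start, GRCm38.p6) matched 20 of the 40 genes by symbol. Promoters of 4 genes are shown because Stab1 and Stab2 are related receptors of the same sinus cells, while Eng and Klf2 hold one of the motifs searched. Only bases that also lie before the start of the gene in GENCODE M21 are printed, and capitals mark matches to a motif. The stretches are chr10:87008039-87008192 on the minus strand, chr14:31168652-31168891 on the minus strand, chr2:32646345-32646594 on the plus strand and chr8:72318812-72319061 on the plus strand, each read 5′ to 3′ in the direction of its gene.
Stab2: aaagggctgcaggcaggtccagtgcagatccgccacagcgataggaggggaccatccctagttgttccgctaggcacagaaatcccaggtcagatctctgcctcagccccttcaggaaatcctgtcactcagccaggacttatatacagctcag
Stab1: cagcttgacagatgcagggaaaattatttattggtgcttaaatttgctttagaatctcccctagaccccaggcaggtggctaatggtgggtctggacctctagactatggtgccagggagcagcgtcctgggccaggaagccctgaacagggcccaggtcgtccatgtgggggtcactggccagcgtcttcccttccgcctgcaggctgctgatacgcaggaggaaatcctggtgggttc
Eng: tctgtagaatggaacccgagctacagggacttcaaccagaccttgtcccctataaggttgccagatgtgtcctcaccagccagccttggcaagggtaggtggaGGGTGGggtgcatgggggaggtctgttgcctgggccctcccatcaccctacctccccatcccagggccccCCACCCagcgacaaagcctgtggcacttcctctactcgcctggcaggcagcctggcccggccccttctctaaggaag
Klf2: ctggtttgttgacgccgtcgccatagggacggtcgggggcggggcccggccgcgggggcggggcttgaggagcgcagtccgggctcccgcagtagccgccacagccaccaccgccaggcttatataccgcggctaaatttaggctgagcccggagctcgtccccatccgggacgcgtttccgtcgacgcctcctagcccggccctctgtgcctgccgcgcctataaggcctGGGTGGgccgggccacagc
The capitals are matches to the KLF motif CCACCC, read on either strand. They begin 147 and 77 bases before the start of Eng and 19 bases before the start of Klf2. Of the 24 windows of these genes, 4 held CCACCC (Egfl7, Eng, Klf2 and Notch4), and 28.1% of all 32851 windows held it. The SOX motif AACAAT was in 3 windows (Calcrl, Emcn and Erg; 9.42% of all), the GATA motif GATAAG in 1 (Erg; 6.55%), the RBPJ motif GTGGGAA in 1 (Bmpr2; 5.42%) and the ETS motif CCGGAAG in 0 (6.91%). Neither stabilin stretch held any of the 5 motifs, which says only that these letters are not in these bases.

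After busulfan with saline, 15 of the 38 endothelial genes tested were lower than in the saline controls and 23 were not called. In B-sa against Con-sa 0 members were higher, where 9.78% of all genes were called lower and 4.73% higher. The lower genes were Pecam1, Mmrn2, Ptprb, Eng and Plvap of the junction and surface class, Ramp2 and S1pr1 of the signalling class, the transcription factors Fli1, Ets1 and Klf2, the Notch genes Notch1 and Jag1, the venous gene Ephb4 and the sinus genes Stab1 and Stab2. The median log2 fold change was -0.19 over the 38 genes and -0.04 over all genes tested, and 31 of the 38 fold changes were below 0. In 20 of the 38, all 3 B-sa mice lay below all 3 Con-sa mice (22.8% of all genes). Calls of Mmrn2, S1pr1, Stab1, Stab2, Ptprb, Ets1 and Ramp2 held under all 21 alternatives. The count fell to 9 without Con-sa replicate 3 and to 7 without B-sa replicate 2, while the lower genes among all genes fell from 1239 to 608 and 346. With median-of-ratios scaling the same comparison called 15 members lower and 0 higher, while the calls over all genes moved from 599 higher and 1239 lower to 966 higher and 736 lower.

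No endothelial gene was called between busulfan with control-donor FMT and busulfan with saline. By limma, 0 of 38 genes were called in B+Con-FMT against B-sa, with 5 at an unadjusted p under 0.05 (18.4% of all genes), where 0.623% of all genes were called higher and 0.221% lower. The median log2 fold change was -0.01 (-0.0041 over all genes tested). Calls over all genes moved from 79 higher and 28 lower to 67 and 113 with equal totals outside the globin genes, where 0 members were called. S1pr1 came nearest, at a log2 fold change of 0.36 and a limma adjusted p of 0.053, and it was called when only genes with at least 1 RPKM in every mouse were tested (adjusted p = 0.047), under median-of-ratios scaling (0.04), with the length and GC trend removed (0.033) and without B-sa replicate 1 (0.0088). Against Con-sa, 15 members were lower in B+Con-FMT and 0 were higher (6.57% of all genes lower, 2.30% higher), with a median of -0.20 beside -0.04 over all genes. They were Pecam1, Cdh5, Cldn5, Mmrn2, Ptprb, Eng and Plvap, then Ramp2, then Erg, Fli1, Ets1 and Klf4, then Ephb4, Stab1 and Stab2. Calls of Fli1, Stab1, Stab2 and Ptprb held under all 21 alternatives. The count was 6 without Con-sa replicate 1, 7 without Con-sa replicate 2, 5 without B+Con-FMT replicate 1 and 9 without B+Con-FMT replicate 2, and the lower genes among all genes fell from 832 to 243, 279, 286 and 363. Over all genes the calls moved from 292 higher and 832 lower to 632 and 499 under median-of-ratios scaling and to 199 and 1637 with equal totals outside the globin genes, where the members gave 12 and 19 lower and 0 higher. This comparison and B-sa against Con-sa share their Con-sa mice.

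With FMT from AOS-fed donors, 11 of the 38 endothelial genes tested were higher than with saline after busulfan and 27 were not called. Against B-sa, these 11 were higher in B+A10-FMT and 0 were lower (4.0% of all genes higher, 1.27% lower), with a median log2 fold change of 0.20 beside 0.05 over all genes tested. The 11 were Cdh5, Mmrn2, Ptprb, Eng, Plvap, Ramp2, Calcrl, S1pr1, Ets1, Aplnr and Stab2. In 22 of the 38, the 3 B+A10-FMT mice exceeded the 3 B-sa mice without overlap (19.7% of all genes). Mmrn2, S1pr1 and Stab2 kept their calls under all 21 alternatives. The count was 6, 3 and 7 without B+A10-FMT replicates 1, 2 and 3 and 4 without B-sa replicate 2, where the genes called higher among all genes fell from 507 to 224, 85, 271 and 117. Median-of-ratios scaling called 8 members higher and 0 lower, with all genes moving from 507 higher and 161 lower to 287 higher and 329 lower.

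Between the FMT groups, 15 of 38 genes were higher in B+A10-FMT relative to B+Con-FMT and 0 were lower (7.58% of all genes higher, 2.78% lower). They were Pecam1, Cdh5, Cldn5, Mmrn2, Ptprb, Eng, Plvap, Calcrl, Bmpr2, Erg, Ets1, Klf4, Aplnr, Stab1 and Stab2. The median log2 fold change was 0.22 beside 0.05 over all genes, and the 3 B+A10-FMT mice exceeded the 3 B+Con-FMT mice without overlap in 24 of the 38 genes (23.8% of all genes). Calls of Mmrn2, Eng, Stab2 and Ptprb held under all 21 alternatives. The count was 4 without B+A10-FMT replicate 2 and 7 without either B+Con-FMT replicate 1 or B+Con-FMT replicate 2, and the higher genes among all genes fell from 960 to 156, 212 and 345. Under median-of-ratios scaling 11 members were higher and 0 lower, and all genes moved from 960 higher and 352 lower to 551 higher and 695 lower. With equal totals outside the globin genes 21 members were higher, and all genes moved to 2100 higher and 239 lower.

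Against the saline controls, no member was called in B+A10-FMT. By limma, 0 of 38 genes were called, with 6 at an unadjusted p under 0.05 (13.5% of all genes), and 0.118% of all genes were higher and 0.292% lower. The median log2 fold change was 0.03 (0.0050 over all genes). Aplnr, at 0.53 with a limma adjusted p of 0.13, was called when Con-sa replicate 2 was left out (0.68, adjusted p = 0.047). A p above the threshold does not show that the levels are equal, and the 95% intervals were wide for some genes. At an unadjusted p under 0.05, those above 0 were Aplnr (0.24 to 0.81), Calcrl (0.04 to 0.45) and Notch4 (0.05 to 0.50), and those below 0 were Klf2 (-0.50 to -0.07), Fli1 (-0.28 to -0.04) and Stab1 (-0.37 to -0.03). The B-sa against Con-sa and B+A10-FMT against B+Con-FMT comparisons share no mice. Of the 15 members lower in the first and the 15 higher in the second, 8 were in both lists (53.3% of each): Pecam1, Mmrn2, Ptprb, Eng, Plvap, Ets1, Stab1 and Stab2. Over all genes, 243 of the 1239 genes lower in the first and of the 960 higher in the second were shared, which is 19.6% and 25.3%. These percentages start from unlike shares, because each list held 15 of the 38 members but 9.78% and 7.58% of all genes. Whether the overlap exceeds what such shares give was not tested, and both comparisons take their spread from the same fit.

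**Figure D1:**
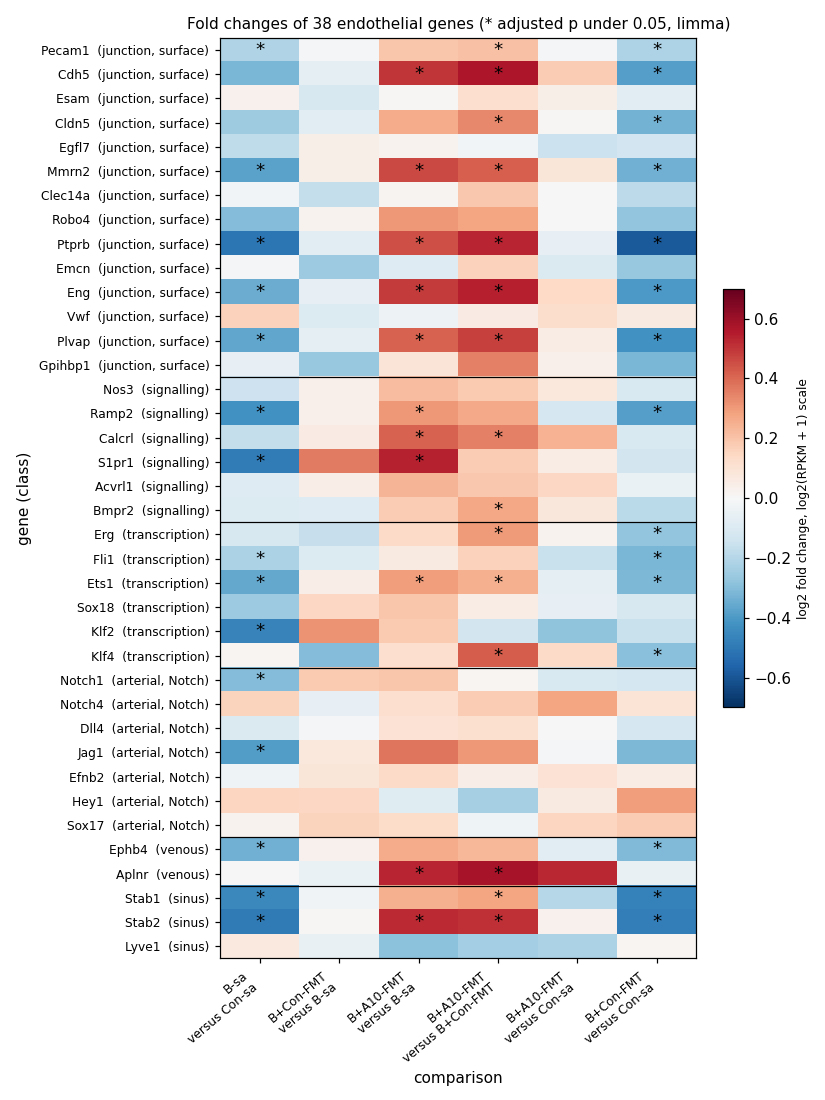
Log2 fold change on the log2(RPKM + 1) scale of the 38 tested endothelial genes, 1 row per gene ordered by class, in the 6 comparisons; blue is lower and red is higher in the first-named group, and an asterisk marks a limma adjusted p under 0.05. The B-sa against Con-sa column has 15 asterisks, all on blue cells, and the B+A10-FMT against B+Con-FMT column has 15, all on red cells.

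Among the junction and surface genes, 5 of 14 were lower in B-sa than Con-sa (9.78% of all genes) and 7 were lower in B+Con-FMT relative to Con-sa (6.57%). In B+A10-FMT 5 were higher relative to B-sa (4.0% of all genes) and 7 were higher relative to B+Con-FMT (7.58%). Plvap, which forms the diaphragms of endothelial pores and vesicles (chromosome 8, 71497753 to 71511806), was the member of highest level in the class. Plvap measured 82.9, 85.2 and 83.1 RPKM in the Con-sa mice, 71.8, 61.2 and 61.99 in the B-sa mice, 52.9, 70.05 and 64.5 in the B+Con-FMT mice and 84.4, 91.3 and 84.8 in the B+A10-FMT mice. Every B-sa and B+Con-FMT mouse lay below every mouse of the other groups. Its log2 fold change was -0.36 (SE 0.089, adjusted p = 0.021) in B-sa against Con-sa, 0.42 (SE 0.089, adjusted p = 0.024) in B+A10-FMT against B-sa and 0.48 (SE 0.089, adjusted p = 0.0092) in B+A10-FMT against B+Con-FMT.

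Pecam1 is the adhesion molecule CD31 of platelets and endothelium (chromosome 11, 106654213 to 106715281). It measured 50.3, 50.7 and 53.5 RPKM in the Con-sa mice, 47.4, 42.5 and 43.5 in the B-sa mice, 43.9, 42.7 and 45.8 in the B+Con-FMT mice and 48.6, 50.99 and 53.5 in the B+A10-FMT mice. The B-sa and B+Con-FMT mice all lay below the Con-sa mice. Pecam1 was lower in B-sa by limma at -0.21 (SE 0.056, adjusted p = 0.03) and in B+Con-FMT at -0.22 (SE 0.056, adjusted p = 0.034), and higher in B+A10-FMT relative to B+Con-FMT at 0.20 (SE 0.056, adjusted p = 0.039), a call that held in 9 of 21 alternatives. Its difference between B+A10-FMT and B-sa, 0.20, had an adjusted p of 0.061 although those mice did not overlap, and it was called with equal totals outside the globin genes (0.041) and without B-sa replicate 1 (0.031).

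Eng, endoglin, a co-receptor of BMP and TGF-β signalling whose promoter is printed above (gene body on chromosome 2, 32646595 to 32682669), measured 39.5, 39.5 and 44.5 RPKM in the Con-sa mice, 32.1, 32.8 and 31.3 in the B-sa mice, 27.2, 30.7 and 35.02 in the B+Con-FMT mice and 46.3, 48.5 and 41.9 in the B+A10-FMT mice. The mean was 110.6% of the Con-sa mean in B+A10-FMT, 77.9% in B-sa and 75.2% in B+Con-FMT. The differences were -0.35 (SE 0.084, adjusted p = 0.019) for B-sa against Con-sa, 0.49 (SE 0.084, adjusted p = 0.0095) for B+A10-FMT against B-sa and 0.55 (SE 0.084, adjusted p = 0.0038) for B+A10-FMT against B+Con-FMT. Mmrn2, multimerin 2, an extracellular matrix protein of endothelium (chromosome 14, 34375504 to 34404287), measured 5.51, 5.12 and 4.67 RPKM in the Con-sa mice, 3.78, 3.95 and 3.36 in the B-sa mice, 3.75, 3.86 and 3.87 in the B+Con-FMT mice and 5.57, 5.46 and 5.33 in the B+A10-FMT mice. All B+A10-FMT mice of Mmrn2 exceeded every B-sa and B+Con-FMT mouse. Its log2 fold change was -0.38 (SE 0.075, adjusted p = 0.0094) after busulfan with saline and 0.46 (SE 0.075, adjusted p = 0.008) in B+A10-FMT against B-sa.

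Ptprb, the receptor phosphatase VE-PTP that acts on VE-cadherin and Tie2 (chromosome 10, 116275502 to 116389538), had the lowest fold change of any member after busulfan with saline. It measured 6.35, 5.88 and 5.9 RPKM in the Con-sa mice, 3.91, 3.76 and 4.19 in the B-sa mice, 3.53, 3.28 and 4.28 in the B+Con-FMT mice and 5.63, 5.68 and 6.03 in the B+A10-FMT mice. The busulfan groups without AOS-donor FMT were at 65.4% (B-sa) and 61.2% (B+Con-FMT) of the Con-sa mean, with no overlap. Limma gave -0.51 (SE 0.083, adjusted p = 0.0052) for B-sa and -0.59 (SE 0.083, adjusted p = 0.0025) for B+Con-FMT against Con-sa, and 0.45 (SE 0.083, adjusted p = 0.013) and 0.53 (SE 0.083, adjusted p = 0.004) for B+A10-FMT against B-sa and B+Con-FMT.

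Cdh5, VE-cadherin, the adhesion protein of endothelial adherens junctions, measured 9.87, 10.7 and 8.86 RPKM in the Con-sa mice, 9.1, 7.17 and 6.77 in the B-sa mice, 6.44, 7.29 and 8.08 in the B+Con-FMT mice and 10.7, 12.2 and 10.8 in the B+A10-FMT mice. The B+A10-FMT mice exceeded every one of the B-sa and B+Con-FMT mice, and 1 B-sa mouse (9.10 RPKM) lay within the Con-sa range. Cdh5 was higher in B+A10-FMT relative to B-sa at 0.50 (SE 0.11, adjusted p = 0.023) and relative to B+Con-FMT at 0.57 (SE 0.11, adjusted p = 0.0096), and lower in B+Con-FMT relative to Con-sa at -0.39 (SE 0.11, adjusted p = 0.043), the last of these calls holding in 10 of 21 alternatives. Its B-sa against Con-sa difference was -0.32 (SE 0.11, adjusted p = 0.06), which is not a call as reported and becomes one without B-sa replicate 1 (-0.44, adjusted p = 0.014). Cldn5, claudin 5 of tight junctions, measured 18.3, 16.8 and 20.3 RPKM in the Con-sa mice, 15.4, 15.1 and 15.4 in the B-sa mice, 12.8, 14.1 and 16.6 in the B+Con-FMT mice and 19.8, 17.5 and 18.2 in the B+A10-FMT mice. No B+Con-FMT mouse reached the Con-sa or B+A10-FMT range. For Cldn5 the calls were B+Con-FMT against Con-sa at -0.33 (SE 0.087, limma adjusted p = 0.036) and B+A10-FMT against B+Con-FMT at 0.34 (SE 0.087, limma adjusted p = 0.03). They held in 14 and 13 of 21 alternatives.

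The remaining 7 genes of the class (Esam, Egfl7, Clec14a, Robo4, Emcn, Vwf and Gpihbp1) were called in no comparison as reported. Esam, a junction adhesion molecule, had group means of 14.1 ± 0.931 (SD, n = 3) in Con-sa and 14.6 ± 1.503 in B+A10-FMT, with 14.5 ± 0.77 in B-sa and 13.3 ± 1.15 in B+Con-FMT. In B-sa against Con-sa the log2 fold change of Esam was 0.03 with a 95% interval of -0.14 to 0.21. Vwf, von Willebrand factor, which platelets and megakaryocytes also carry, ranged from 8.92 to 14.8 RPKM, with the widest spread in B+Con-FMT (8.92 to 14.8). Gpihbp1, the lipase anchor of capillaries, spanned 10.5 to 17.4 RPKM, and Egfl7, a secreted endothelial factor, 13.6 to 17.9 RPKM. Clec14a (3.27 to 4.31 RPKM), Robo4 (3.21 to 5.24 RPKM) and Emcn, endomucin (1.11 to 2.69 RPKM), were lower still. Robo4, a guidance receptor of endothelium, had limma adjusted p-values of 0.053 in B-sa against Con-sa (-0.30) and 0.080 in B+A10-FMT against B-sa (0.31). It was called lower in B-sa against Con-sa with at least 1 RPKM in every mouse (adjusted p = 0.0496), without B+Con-FMT replicate 3 (0.049) and without Con-sa replicate 2 (0.045). With equal totals outside the globin genes, Robo4 and Gpihbp1 were called higher in B+A10-FMT against B+Con-FMT (0.035 and 0.028) and lower in B+Con-FMT against Con-sa (0.045 and 0.049), and Gpihbp1 was called in the former also with the length and GC trend removed (0.031) and without B+A10-FMT replicate 3 (0.028).

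**Figure D2:**
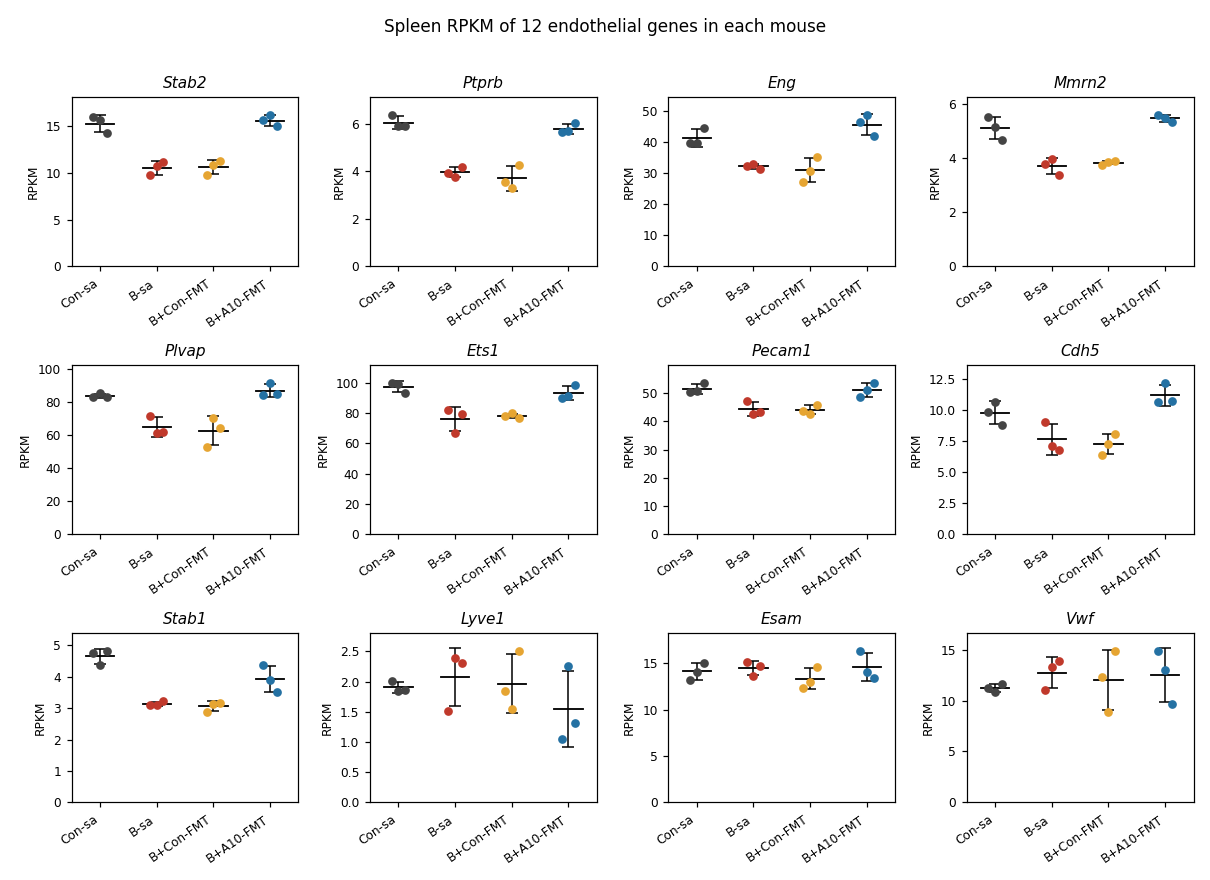
RPKM of 12 endothelial genes in each mouse (points), with the group mean and SD (bars, n = 3), in each of the 4 groups. For Stab2, Ptprb, Eng, Mmrn2 and Plvap the B-sa and B+Con-FMT mice lie below the other groups, while Lyve1, Esam and Vwf overlap between groups.

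In the signalling class, 2 of 6 genes were lower in B-sa against Con-sa (9.78% of all genes) and 3 were higher in B+A10-FMT relative to B-sa (4.0%). S1pr1, the sphingosine 1-phosphate receptor that stabilises vessels and also guides lymphocyte exit, had the highest level. It measured 90.3, 94.6 and 93.4 RPKM in the Con-sa mice, 74.9, 56.2 and 67.5 in the B-sa mice, 87.8, 83.1 and 83.8 in the B+Con-FMT mice and 96.3, 94.7 and 97.2 in the B+A10-FMT mice. All B-sa mice lay below all other mice, and the B+Con-FMT mice lay between the B-sa and the Con-sa mice. The log2 fold change of S1pr1 was -0.49 (SE 0.079, adjusted p = 0.0051) in B-sa against Con-sa and 0.54 (SE 0.079, adjusted p = 0.0057) in B+A10-FMT against B-sa. Against B+Con-FMT the difference of the B+A10-FMT mice was 0.18 (SE 0.079, adjusted p = 0.16).

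Ramp2 and Calcrl form the adrenomedullin receptor of vessels. Ramp2 measured 25.6, 27.5 and 30.96 RPKM in the Con-sa mice, 22.3, 20.1 and 19.5 in the B-sa mice, 19.4, 22.4 and 21.9 in the B+Con-FMT mice and 26.5, 26.9 and 23.7 in the B+A10-FMT mice. Its level was lower in B-sa at -0.42 (SE 0.081, adjusted p = 0.0083) and in B+Con-FMT at -0.38 (SE 0.081, adjusted p = 0.016) against Con-sa, and it was higher in B+A10-FMT relative to B-sa at 0.30 (SE 0.081, adjusted p = 0.048), a call that held in 7 of 21 alternatives. Calcrl measured 7.71, 6.7 and 6.31 RPKM in the Con-sa mice, 5.61, 5.66 and 6.86 in the B-sa mice, 6.69, 5.57 and 6.76 in the B+Con-FMT mice and 8.0, 8.22 and 8.83 in the B+A10-FMT mice. Its B-sa mice overlapped the Con-sa mice (-0.17, adjusted p = 0.25), and every B+A10-FMT mouse exceeded every other mouse. The calls for Calcrl were B+A10-FMT against B-sa at 0.41 (SE 0.095, limma adjusted p = 0.03) and B+A10-FMT against B+Con-FMT at 0.35 (SE 0.095, limma adjusted p = 0.036). They held in 14 and 13 of 21 alternatives. The 2 partners of the receptor thus gave different calls against Con-sa. That difference between the genes was not tested.

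Bmpr2, the type II receptor that works with Acvrl1 (ALK1) in BMP9 and BMP10 signalling, measured 3.86, 4.02 and 3.79 RPKM in the Con-sa mice, 3.63, 3.43 and 3.67 in the B-sa mice, 3.39, 3.13 and 3.36 in the B+Con-FMT mice and 4.21, 4.15 and 4.16 in the B+A10-FMT mice. The B+A10-FMT mice were above all others and the B+Con-FMT mice below all others. Bmpr2 was higher in B+A10-FMT relative to B+Con-FMT at 0.27 (SE 0.066, adjusted p = 0.026), a call that held in 13 of 21 alternatives. Acvrl1 was called nowhere, with 6.19 to 9.16 RPKM over the mice. Nos3, the endothelial nitric oxide synthase, stood near the 1 RPKM filter at 1.21 to 2.0 RPKM and was also called nowhere.

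Of the 6 tested transcription factors, 3 were lower in B-sa than Con-sa (9.78% of all genes) and 4 were lower in B+Con-FMT relative to Con-sa (6.57%). In B+A10-FMT 1 was higher relative to B-sa (4.0% of all genes) and 3 were higher relative to B+Con-FMT (7.58%). Klf2, induced in endothelium by blood flow and also expressed in resting lymphocytes, had the highest mean of the class. Klf2 measured 101, 96.6 and 115 RPKM in the Con-sa mice, 83.5, 70.0 and 72.1 in the B-sa mice, 94.9, 105 and 81.8 in the B+Con-FMT mice and 84.2, 79.6 and 92.6 in the B+A10-FMT mice. The B-sa mice lay below all Con-sa mice, at -0.47 (SE 0.098, adjusted p = 0.012). Klf2 was not called in B+A10-FMT against B-sa (0.18, adjusted p = 0.27), and all 3 B+A10-FMT mice lay below all Con-sa mice at -0.28 (SE 0.098, adjusted p = 0.26).

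Ets1, an ETS factor of endothelium and lymphocytes, measured 99.6, 99.3 and 93.3 RPKM in the Con-sa mice, 81.97, 66.7 and 79.5 in the B-sa mice, 78.03, 79.8 and 76.99 in the B+Con-FMT mice and 89.9, 91.1 and 98.4 in the B+A10-FMT mice. Both B-sa and B+Con-FMT lay below the remaining groups without overlap. Ets1 had -0.36 (SE 0.07, adjusted p = 0.0092) in B-sa against Con-sa, 0.29 (SE 0.07, adjusted p = 0.035) in B+A10-FMT against B-sa and 0.25 (SE 0.07, adjusted p = 0.043) in B+A10-FMT against B+Con-FMT, and the last 2 calls held in 10 and 7 of 21 alternatives. Fli1, an ETS factor of endothelium, megakaryocytes and lymphocytes, measured 38.7, 39.99 and 41.3 RPKM in the Con-sa mice, 35.5, 32.2 and 34.9 in the B-sa mice, 34.01, 30.4 and 31.3 in the B+Con-FMT mice and 35.2, 35.7 and 36.3 in the B+A10-FMT mice. All busulfan mice of Fli1 were below all Con-sa mice. It was lower in B-sa at -0.22 (SE 0.056, adjusted p = 0.023) and in B+Con-FMT at -0.32 (SE 0.056, adjusted p = 0.007), and the B+A10-FMT difference from Con-sa was -0.16 (SE 0.056, adjusted p = 0.26).

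Erg, the ETS factor most restricted to endothelium among the 3, measured 3.75, 3.97 and 3.89 RPKM in the Con-sa mice, 3.61, 3.35 and 3.54 in the B-sa mice, 2.96, 2.75 and 3.4 in the B+Con-FMT mice and 3.76, 3.83 and 4.26 in the B+A10-FMT mice. The 2 lowest mice were of B+Con-FMT. Erg was lower in B+Con-FMT relative to Con-sa at -0.27 (SE 0.079, limma adjusted p = 0.049), which held in 4 of 21 alternatives. It was higher in B+A10-FMT relative to B+Con-FMT at 0.30 (SE 0.079, limma adjusted p = 0.035), which held in 13 of 21. For Erg, B-sa against Con-sa gave -0.11 (SE 0.079, limma adjusted p = 0.34). Klf4, a flow-responsive factor that monocytes also express, measured 3.38, 3.04 and 3.39 RPKM in the Con-sa mice, 3.36, 3.05 and 3.52 in the B-sa mice, 2.38, 2.33 and 2.77 in the B+Con-FMT mice and 3.42, 3.82 and 3.81 in the B+A10-FMT mice. The B+Con-FMT mice of Klf4 lay below every other mouse. Klf4 was lower in B+Con-FMT relative to Con-sa at -0.29 (SE 0.082, adjusted p = 0.046), a call that held in 7 of 21 alternatives, and higher in B+A10-FMT relative to B+Con-FMT at 0.42 (SE 0.082, adjusted p = 0.01), while B-sa against Con-sa gave 0.01 (95% interval -0.16 to 0.19). Sox18, a SOX factor of vessel development, spanned 8.19 to 12.4 RPKM and was not called with all mice. Without B-sa replicate 1 it was called lower in B-sa against Con-sa (-0.39, adjusted p = 0.013) and higher in B+A10-FMT against B-sa (0.34, adjusted p = 0.045). Sox7 averaged 0.937 RPKM in Con-sa and 0.517 RPKM in B-sa, and without the filter on low values it was called lower in that comparison (-0.35, adjusted p = 0.048).

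**Figure D3:**
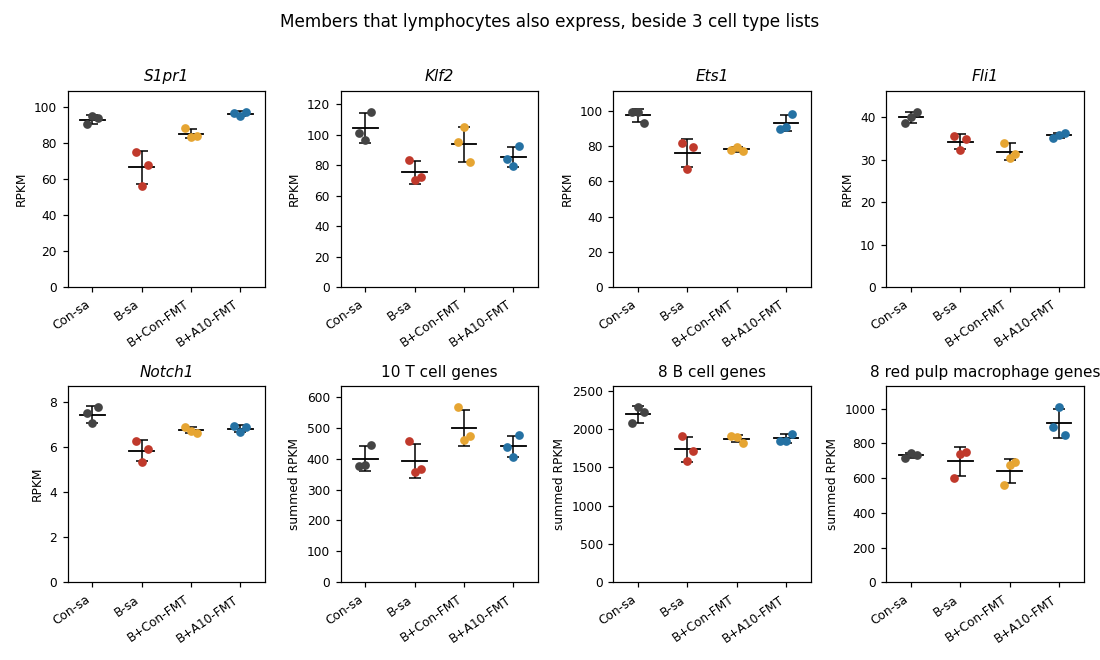
RPKM per mouse (points) with group mean and SD (bars, n = 3) of S1pr1, Klf2, Ets1, Fli1 and Notch1, which lymphocytes also express, and the summed RPKM of 10 T cell, 8 B cell and 8 red pulp macrophage genes. S1pr1 and Klf2 are lowest in B-sa, the B cell sum is highest in Con-sa (2071 to 2286) and the macrophage sum is highest in B+A10-FMT (848 to 1009).

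Of the arterial and Notch genes, 2 of 7 were called, in 1 comparison each as reported. Notch1 and Jag1 were lower in B-sa than Con-sa, where 9.78% of all genes were called lower. In each of the other 5 comparisons limma called 0 of the 7 genes, with 1 or 2 at an unadjusted p under 0.05. Over all genes that share was 18.4% in B+Con-FMT against B-sa, 24.5% and 28.9% in B+A10-FMT against B-sa and B+Con-FMT, and 13.5% and 27.4% in B+A10-FMT and B+Con-FMT against Con-sa. The median of the class was at 107.2% of the Con-sa mean in B+A10-FMT, 97.5% in B-sa and 104.6% in B+Con-FMT. Whether this class differs from the others was not tested. Notch1, the main Notch receptor of arteries and of early T cells and the class member of highest level, measured 7.5, 7.07 and 7.79 RPKM in the Con-sa mice, 6.28, 5.36 and 5.91 in the B-sa mice, 6.92, 6.72 and 6.65 in the B+Con-FMT mice and 6.95, 6.67 and 6.88 in the B+A10-FMT mice. The B-sa mice of Notch1 were below all other mice. Its differences were -0.30 (SE 0.067, adjusted p = 0.013) in B-sa against Con-sa, 0.18 (SE 0.067, adjusted p = 0.18) in B+Con-FMT against B-sa and 0.20 (SE 0.067, adjusted p = 0.099) in B+A10-FMT against B-sa.

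Jag1, a Notch ligand of endothelium and stroma, measured 3.49, 3.42 and 4.08 RPKM in the Con-sa mice, 2.24, 2.41 and 3.07 in the B-sa mice, 2.52, 2.78 and 2.92 in the B+Con-FMT mice and 3.18, 3.71 and 3.98 in the B+A10-FMT mice. The B-sa and B+Con-FMT mice lay below all Con-sa and B+A10-FMT mice. Jag1 was lower in B-sa than Con-sa at -0.39 (SE 0.1, limma adjusted p = 0.028), a call that held in 13 of 21 alternatives. Its B+A10-FMT against B-sa difference of 0.37 had an adjusted p of 0.053 and was called with the replicate number as a block (0.035), with at least 1 RPKM in every mouse (0.049) and without B-sa replicate 3 (0.033). With a block for the replicate number and with equal totals outside the globin genes, Jag1 was also called higher in B+A10-FMT against B+Con-FMT (adjusted p = 0.044 and 0.04) and lower in B+Con-FMT against Con-sa (0.042 and 0.044). The other 5 genes were low and were called in no comparison as reported: the receptor Notch4 (1.23 to 2.15 RPKM), the ligand Dll4 (1.85 to 2.75), the arterial ephrin Efnb2 (3.93 to 5.12), the Notch target Hey1 (1.48 to 2.45) and the arterial factor Sox17 (1.23 to 1.84). Hey1 had its highest mean in B+Con-FMT (2.16 ± 0.281 RPKM, SD, n = 3, against 1.58 ± 0.159 in Con-sa), with a log2 fold change of 0.29 (SE 0.1, adjusted p = 0.093). Notch4 was called higher in B-sa against Con-sa with the length and GC trend removed (0.33, adjusted p = 0.041), where the reported value was 0.16.

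Ephb4, the receptor tyrosine kinase of veins, measured 6.07, 6.39 and 7.2 RPKM in the Con-sa mice, 5.4, 5.03 and 4.53 in the B-sa mice, 4.89, 5.25 and 5.15 in the B+Con-FMT mice and 5.94, 6.59 and 5.94 in the B+A10-FMT mice. The B-sa and B+Con-FMT mice were below all Con-sa and B+A10-FMT mice. Ephb4 was lower in B-sa than Con-sa at -0.34 (SE 0.079, limma adjusted p = 0.018) and in B+Con-FMT at -0.31 (SE 0.079, limma adjusted p = 0.034). These calls held in 16 and 12 of 21 alternatives. Its B+A10-FMT against B-sa difference was 0.26 (SE 0.079, limma adjusted p = 0.073). Aplnr, the apelin receptor, a gene of veins and of sprouting endothelium, measured 2.07, 3.06 and 1.82 RPKM in the Con-sa mice, 2.52, 1.98 and 2.33 in the B-sa mice, 2.11, 1.88 and 2.54 in the B+Con-FMT mice and 3.73, 4.12 and 3.36 in the B+A10-FMT mice. Here the 3 B+A10-FMT mice were above all other mice, and the other groups overlapped. Aplnr was higher in B+A10-FMT relative to B-sa at 0.53 (SE 0.13, adjusted p = 0.039), which held in 10 of 21 alternatives, and relative to B+Con-FMT at 0.58 (SE 0.13, adjusted p = 0.02), its mean was at 161% of the Con-sa mean, and B-sa did not differ detectably from Con-sa (0.00, 95% interval -0.29 to 0.28).

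Both stabilins of the sinus lining were lower after busulfan with saline or with control-donor FMT. Stab2, which takes up hyaluronan (chromosome 10, 86841194 to 87008038), measured 15.97, 15.6 and 14.2 RPKM in the Con-sa mice, 9.71, 10.8 and 11.2 in the B-sa mice, 9.75, 10.8 and 11.3 in the B+Con-FMT mice and 15.6, 16.1 and 14.9 in the B+A10-FMT mice. The B-sa and B+Con-FMT mice (9.71 to 11.3 RPKM) did not overlap the Con-sa and B+A10-FMT mice (14.2 to 16.1 RPKM). Its log2 fold change was -0.49 (SE 0.071, adjusted p = 0.0036) in B-sa and -0.49 (SE 0.071, adjusted p = 0.0032) in B+Con-FMT against Con-sa. Against the same groups in turn, B+A10-FMT was higher by 0.52 (SE 0.071, adjusted p = 0.0034) than B-sa and by 0.51 (SE 0.071, adjusted p = 0.0021) than B+Con-FMT, and the 4 calls held under all 21 alternatives. B+A10-FMT against Con-sa gave 0.03 with a 95% interval of -0.13 to 0.18.

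Stab1, which sinus endothelium shares with tissue macrophages (chromosome 14, 31139017 to 31168651), measured 4.75, 4.39 and 4.81 RPKM in the Con-sa mice, 3.1, 3.09 and 3.22 in the B-sa mice, 2.88, 3.13 and 3.18 in the B+Con-FMT mice and 4.36, 3.91 and 3.51 in the B+A10-FMT mice. The B+A10-FMT mice lay between, above all B-sa and B+Con-FMT mice and below all Con-sa mice. Stab1 was lower in B-sa at -0.45 (SE 0.079, adjusted p = 0.0062) and in B+Con-FMT at -0.48 (SE 0.079, adjusted p = 0.0058). B+A10-FMT was higher than B+Con-FMT at 0.28 (SE 0.079, adjusted p = 0.044), a call that held in 6 of 21 alternatives, and was not called against B-sa (0.25, adjusted p = 0.079) or Con-sa (-0.20, adjusted p = 0.3). Lyve1, the hyaluronan receptor of lymphatic and some sinus endothelium, measured 2.01, 1.85 and 1.86 RPKM in the Con-sa mice, 1.52, 2.39 and 2.3 in the B-sa mice, 1.84, 1.55 and 2.5 in the B+Con-FMT mice and 1.05, 2.25 and 1.32 in the B+A10-FMT mice. Its groups overlapped throughout, and no comparison called it.

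**Figure D4:**
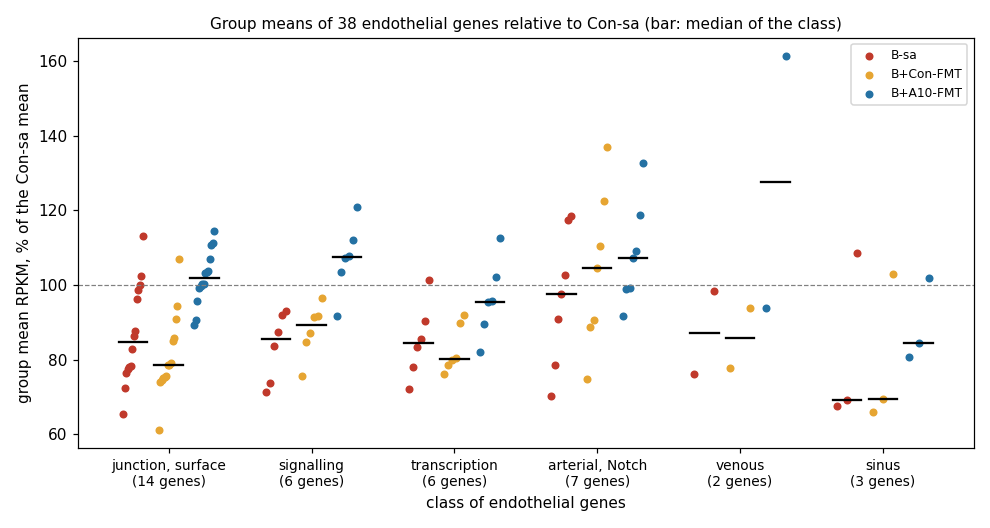
Group mean RPKM of each tested gene as a percent of its Con-sa mean, by class, for each busulfan group (points), with the median of the class as a bar and a dashed line at 100%. The medians of the junction and surface class are 102% for B+A10-FMT, 84.7% for B-sa and 78.5% for B+Con-FMT, and those of the sinus class, in this order, 84.4%, 69.1% and 69.6%.

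Other endothelial genes were read from a list of 30 further names, of which 29 were tested. Over all genes, 9.78% were called lower and 4.73% higher in B-sa against Con-sa, and 6.57% lower in B+Con-FMT against Con-sa. Those called higher in B+A10-FMT were 4.0% against B-sa, 7.58% against B+Con-FMT and 0.118% against Con-sa. These shares also apply to the Notch and BMP lists that follow. Of the 29 genes, 7 were lower and 1 was higher in B-sa against Con-sa. The 3 of largest fold change were Tjp1 (0.54), Adgrf5 (-0.44) and Sparcl1 (-0.42). Tjp1, the tight junction scaffold ZO-1, rose from 4.403 ± 0.415 RPKM (SD, n = 3) in Con-sa to 6.87 ± 0.497 in B-sa (limma adjusted p = 0.011). Its mean was 7.67 ± 0.846 in B+A10-FMT and 5.23 ± 1.03 in B+Con-FMT, and B+A10-FMT was called higher against Con-sa (limma adjusted p = 0.023) and B+Con-FMT (0.48, limma adjusted p = 0.022). Adgrf5, an adhesion receptor of endothelium, had means of 7.49 ± 0.217 RPKM in Con-sa and 7.597 ± 0.204 in B+A10-FMT, with 5.26 ± 0.209 in B-sa and 5.09 ± 0.225 in B+Con-FMT. Limma called 0 of the 29 in B+Con-FMT against B-sa (5 at an unadjusted p under 0.05). Of these genes, 5 were higher in B+A10-FMT relative to B-sa, led by Sparcl1 (0.62), Adgrf5 (0.46) and She (0.44). In B+A10-FMT against B+Con-FMT 11 were higher, led by Kdr, the VEGF receptor 2 (0.58), Adgrf5 (0.50) and Sparcl1 (0.50). Tjp1 was the 1 gene called in B+A10-FMT against Con-sa (0.68). In B+Con-FMT against Con-sa 6 were lower, led by Adgrf5 (-0.48), Flt4 (-0.48) and Tek (-0.46), the receptors of lymphatic VEGF and of angiopoietin being the last 2.

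Of 15 further genes of the Notch pathway, 6 were lower in B-sa than Con-sa, among them the target Hes5 (-0.47), the receptor Notch2 (-0.46) and the receptor Notch3 (-0.32). Notch2, which marginal zone B cells also need, averaged 20.2 ± 0.736 RPKM (SD, n = 3) in Con-sa and 18.9 ± 0.535 in B+A10-FMT, with 14.5 ± 1.16 in B-sa and 15.2 ± 0.183 in B+Con-FMT. The receptor Notch2 (0.36) and the ligand Dll1 (0.32) were the 2 genes higher in B+A10-FMT relative to B-sa. In B+A10-FMT against B+Con-FMT 5 were higher, led by Notch3 (0.40), the DNA-binding partner Rbpj (0.38) and Notch2 (0.29). In B+Con-FMT against Con-sa 5 were lower, led by Notch2 (-0.39), Rbpj (-0.38) and Notch3 (-0.36). Limma called 0 of the 15 in B+Con-FMT against B-sa (4 at an unadjusted p under 0.05) and 0 in B+A10-FMT against Con-sa (3 at an unadjusted p under 0.05). Of 16 genes around BMP and ALK1 signalling, 12 were tested. Smad4 (-0.31) and the receptor Tgfbr2 (-0.23) were lower in B-sa than Con-sa, and the ligand Bmp6 (0.40) and Smad4 (0.24) were higher in B+A10-FMT relative to B-sa. Bmp6 averaged 5.12 ± 0.3002 RPKM in Con-sa and 5.82 ± 0.268 in B+A10-FMT, with 4.19 ± 0.436 in B-sa and 4.097 ± 0.185 in B+Con-FMT, and was the 1 gene of its list called in B+A10-FMT against B+Con-FMT (0.42). In the remaining 3 comparisons limma called 0 of the 12, with 4, 1 and 3 at an unadjusted p under 0.05 in B+Con-FMT against B-sa, B+A10-FMT against Con-sa and B+Con-FMT against Con-sa.

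Markers of other spleen cells moved in some of the same comparisons, and their part in the endothelial results was not tested. No marker in these lists was at 0 in all mice. Over all genes, 9.78% were called lower and 4.73% higher in B-sa against Con-sa, and 6.57% lower and 2.30% higher in B+Con-FMT against Con-sa. Those higher in B+Con-FMT against B-sa were 0.623%. In B+A10-FMT 4.0% were higher than in B-sa and 0.118% higher than in Con-sa, while 7.58% were higher and 2.78% lower than in B+Con-FMT. The summed RPKM of 8 B cell genes was 2071 to 2286 in Con-sa and 1838 to 1940 in B+A10-FMT, with 1580 to 1905 in B-sa and 1819 to 1907 in B+Con-FMT. Of these 8, 5 were lower in B-sa against Con-sa and 2 in B+Con-FMT, 1 was lower in B+A10-FMT relative to B+Con-FMT and 0 were called in B+A10-FMT against B-sa (1 at an unadjusted p under 0.05). The 10 T cell genes summed to 376 to 445 in Con-sa and 406 to 475 in B+A10-FMT, with 355 to 456 in B-sa and 460.0 to 567 in B+Con-FMT. Of them, 1 was lower in B-sa against Con-sa and 2 were higher in B+Con-FMT against B-sa (Il7r and Cd3e). In B+Con-FMT against Con-sa 3 were higher (Lck, Cd3g and Cd3e). In B+A10-FMT against B-sa, where S1pr1 and Ets1, which lymphocytes share, were called higher, 1 T cell gene was higher, Il7r (0.49, limma adjusted p = 0.019). The 8 red pulp macrophage genes summed to 717 to 744 in Con-sa and 848 to 1009 in B+A10-FMT, with 599 to 750 in B-sa and 563 to 692 in B+Con-FMT. In B+A10-FMT 3 of them were higher than in B-sa and 6 higher than in B+Con-FMT, while 0 of the 8 were called in B-sa against Con-sa (0 at an unadjusted p under 0.05, beside 31.3% of all genes). In B+A10-FMT against Con-sa, where no endothelial member was called, 1 of the 8 was higher, the iron exporter Slc40a1 (0.55, limma adjusted p = 0.043), and 5 were at an unadjusted p under 0.05. Red pulp macrophage genes and endothelial genes were called higher in the same B+A10-FMT mice, and Stab1 is expressed by both cell types.

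Genes of vessel-wall and other tissues were set beside the members in the same way. The 8 fibroblast and smooth muscle genes summed to 206 to 283 RPKM in Con-sa and 183 to 202 in B+A10-FMT, with 192 to 229 in B-sa and 197 to 238 in B+Con-FMT. Of these 8, 0 were called in B-sa against Con-sa (3 at an unadjusted p under 0.05), and 1, Pdgfrb of pericytes, was lower in B+Con-FMT relative to Con-sa but higher in B+A10-FMT relative to B+Con-FMT. The 8 megakaryocyte genes, a cell type that shares Fli1 and Vwf with endothelium, summed to 831 to 893 in Con-sa, 869 to 1268 in B+A10-FMT, 1034 to 1264 in B-sa and 806 to 1258 in B+Con-FMT. In B-sa against Con-sa 1 of them was higher (Gp9) and 4 were at an unadjusted p under 0.05, with all 8 fold changes above 0 and a median of 0.38. In the other 5 comparisons limma called 0 of the 8, with 0 or 1 at an unadjusted p under 0.05.

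The 8 erythroid genes, globins included, summed to 124952 to 154557 in Con-sa, 105540 to 121058 in B+A10-FMT, 121990 to 146608 in B-sa and 107930 to 151627 in B+Con-FMT. In B-sa against Con-sa 4 were higher (Epor, Tfrc, Klf1 and Hba-a1) and 1 was lower, the beta-globin Hbb-bs, with a mean of 30510 RPKM in Con-sa and 19.0 in B-sa. There 7 of the 8 fold changes were above 0 and 1 below, with a median of 0.31. Hba-a1 was lower in B+A10-FMT against B-sa (-0.38, limma adjusted p = 0.039) and Hbb-bs was higher (9.22, limma adjusted p = 0.039). Globin genes have near-identical copies whose reads may be split between them, so values of a single globin gene are uncertain. The erythroid sum holds Hba-a1 and Hbb-bs and is uncertain in the same way. Globin transcripts took 24.9% to 25.9% of the summed RPKM in Con-sa, 23.3% to 27.6% in B+A10-FMT, 27.98% to 32.4% in B-sa and 25.3% to 29.4% in B+Con-FMT, so B-sa did not overlap Con-sa or B+A10-FMT. With equal totals outside the globin genes 15 members were lower and 0 higher in B-sa against Con-sa, and in B+A10-FMT against B-sa 12 were higher and 0 lower.

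Markers of tissues that lie next to the spleen also varied. The 6 adipocyte genes summed to 114 to 219 RPKM in Con-sa, 66.4 to 79.0 in B+A10-FMT, 119.9 to 294 in B-sa and 38.4 to 117 in B+Con-FMT, so that every B+A10-FMT mouse was below every Con-sa and B-sa mouse. Limma called 0 of the 5 adipocyte genes tested in any comparison. Of the 5, 4 were at an unadjusted p under 0.05 in B+A10-FMT against B-sa (median log2 fold change -1.27) and 3 in B+Con-FMT against B-sa (median -1.24). The 8 pancreatic acinar genes summed to 1124 to 6151 RPKM in Con-sa, 372 to 7778 in B+A10-FMT, 397 to 2825 in B-sa and 6703 to 10947 in B+Con-FMT. Limma called 0 of the 8 in any comparison. All 8 were at an unadjusted p under 0.05 in B+Con-FMT against B-sa (median log2 fold change 3.25), and 6 were at that p in B+A10-FMT against B+Con-FMT (median -2.88), where 15 endothelial genes were called. The part of such tissue in the endothelial results was not tested.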

How the data were processed

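Spleen RNA of 12 mice was measured. The authors enriched polyadenylated RNA, made cDNA libraries, mapped the reads and scaled the reads of each gene to RPKM. They deposited RPKM for 60654 RefSeq transcripts in 1 table per mouse, without counts. The study's methods name SOAPaligner and an Illumina HiSeq, whereas the submitters' notes name HISAT, Bowtie2 and the mouse build mm10 and the library protocol names BGISEQ. Whether counting used strand is not given in the sources used here, so reads of overlapping or antisense genes cannot be told apart.

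Groups were taken from the sample labels. RPKM were summed over the transcripts of each of 18221 genes, and symbols were matched for 18101 of them. Depth was estimated from the RPKM that 1 read is worth, with 12900000 to 13500000 reads per mouse, and no counting interval was given. No tables were identical between mice. The 12671 genes that reached 1 RPKM in 3 or more mice entered the test, which was limma 3.58.1 (R 4.3.3, trend and robust) applied to log2(RPKM + 1), with all 12 mice in 1 fit, group as the only factor and Benjamini-Hochberg adjustment over all genes tested. Calls are at an adjusted p under 0.05, two-sided, and the 6 comparisons share groups. The script was tested on simulated data.

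The members and all gene lists were chosen with earlier results of these data known. All members called in at least 1 comparison, Pecam1, the sinus genes and the highest member of each class are given by mouse. From the further lists up to 3 called genes of largest fold change per comparison are named, and any other gene was picked once its values were known. Cell type lists are given as sums and counts.

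Replicate numbers belong to different mice in each group. As alternatives, a pseudocount of 0.1 was used, the filter was dropped or set in every mouse, and further fits used a block for the replicate number, separate fits of the 2 groups in a comparison, scaling by the median of ratios, scaling to equal totals without the globin genes, curated (NM) transcripts only, removal of each mouse's trend along length and GC content, and each mouse left out in turn. Promoters are from RefSeq (GRCm38.p6), and gene positions are those of a RefSeq gene table of the same genome. Python 3.11.15 with pandas 2.3.3 and matplotlib 3.10.9 made the tables and figures.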

Additional observations from a re-analysis of the deposited data

How the results depend on the processing

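Of the 56 calls of single endothelial genes, 18 held under all 21 alternatives and 0 turned direction. Fewest calls were kept with curated transcripts only and without B+A10-FMT replicate 2 (35 each). The numbers of called genes ranged over the 12 left-out mice from 7 to 17 in B-sa against Con-sa, from 0 to 1 in B+Con-FMT against B-sa, from 3 to 12 in B+A10-FMT against B-sa, from 4 to 16 in B+A10-FMT against B+Con-FMT, from 0 to 1 in B+A10-FMT against Con-sa and from 5 to 14 in B+Con-FMT against Con-sa. Medians ranged in the same order from -0.22 to -0.18, from -0.0395 to 0.0274, from 0.16 to 0.24, from 0.21 to 0.25, from 0.01 to 0.04 and from -0.24 to -0.18.

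In B-sa against Con-sa the median moved from -0.19 to -0.15 with median-of-ratios scaling, -0.15 with the length and GC trend removed and -0.25 with curated transcripts, and the trend removal changed the calls over all genes from 599 higher and 1239 lower to 689 and 599. In B+Con-FMT against B-sa 1 gene, S1pr1, was called with at least 1 RPKM in every mouse, with median-of-ratios scaling and with the trend removed, and the median was -0.0556 with totals set equal without the globin genes. In B+A10-FMT against B-sa the count of 11 became 7 with only the 2 groups compared and 5 with curated transcripts, and the median of 0.20 became 0.15 with median-of-ratios scaling and 0.13 with the trend removed. In B+A10-FMT against B+Con-FMT the count of 15 became 9 with curated transcripts, and the median of 0.22 became 0.26 with a pseudocount of 0.1, 0.17 with median-of-ratios scaling, 0.27 with equal totals and 0.13 with the trend removed. In B+Con-FMT against Con-sa the count of 15 became 8 with curated transcripts and 9 with the trend removed, and the median of -0.20 became -0.16 with median-of-ratios scaling, -0.25 with equal totals and -0.25 with curated transcripts. The causes were not tested.

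A block for the replicate number gave counts of 15, 0, 9, 13, 0 and 12 in the order above. The deviations of mice with the same number correlated at a mean of -0.17 to 0.18 over the comparisons, highest in B+Con-FMT against Con-sa (single pairs -0.054 to 0.303). In every comparison at least 1 pair lay below 0.1, which with so few pairs cannot exclude a pairing. The reported fit left the mice unpaired. Only 3 mice per group and RPKM without counts limit what can be detected.

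Beside the gained calls given with the genes, an adjusted p under 0.05 was reached in B+A10-FMT against B+Con-FMT by Ephb4 (0.022), Fli1 (0.019) and Ramp2 (0.015) with totals set equal without the globin genes, by Ramp2 also with the trend removed, with 1 RPKM in every mouse and without B-sa replicate 1 or Con-sa replicate 3 (0.0105 to 0.0479), and by S1pr1 with only these groups fitted and without B-sa replicate 2 (0.045 each). Bmpr2 was called lower in B+Con-FMT against Con-sa with equal totals (0.043), and Cldn5 lower in B-sa against Con-sa without B+Con-FMT replicate 3 (0.041).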
